A study of Homo sapiens with 6 samples.

Results

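The amino acid transporter genes of 6 solute carrier families (SLC1, SLC3, SLC7, SLC36, SLC38 and SLC43) were taken from the gene counts of Caki-1 cells by symbol, as every gene named by one of these families followed by the letter A and a number. This gave 40 of the 60708 genes listed. Caki-1 is an established human clear cell carcinoma line with wild-type VHL. RNA was sequenced from 3 VC samples, which are WT cells infected with the lentiviral CRISPR vector only, and from 3 VHL-KO samples, in which the vector carried an sgRNA against VHL. Cells of both groups therefore carry a lentiviral CRISPR vector. Selection with puromycin is described for the knockout lines, which are called clonal, with no statement of how many clones were sequenced. No cloning is described for the VC cells. Differences that come from picking a clone and those that come from VHL loss therefore cannot be told apart here. Total counts ranged from 28463579 to 34881739 per VC sample and from 22628246 to 29139722 per VHL-KO sample.

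Cells take up most amino acids through carriers of the solute carrier superfamily, and each family couples uptake in its own way, to sodium, to protons, to the exchange of another amino acid, or to no other solute. SLC7 light chains reach the plasma membrane bound to an SLC3 heavy chain, while other members sit on lysosomes and release amino acids to the cytosol, where they bear on the kinase mTORC1. In the kidney these carriers reclaim amino acids from the filtrate across the proximal tubule, the segment from which clear cell carcinoma is thought to arise, and VHL is the tumor suppressor that targets HIF-alpha proteins for degradation.

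VHL itself had 42.6, 37.8 and 40.1 CPM (the count as a share of the library, scaled by the TMM method of edgeR) in VC replicates 1 to 3 and 34.8, 30.4 and 30.5 CPM in VHL-KO replicates 1 to 3. The VHL-KO samples lay below all VC samples, and the log2 fold change of VHL-KO over VC was -0.33 (standard error 0.11, edgeR adjusted p = 0.0109). This call was lost with upper quartile factors (adjusted p = 0.0905), with GC and length offsets (0.156), with VC replicate 1 left out (0.0862) and with VHL-KO replicate 2 left out (0.0621), within a range of 0.000293 to 0.156 over all settings run. Counts over a whole gene do not show a small edit in its coding sequence, so this value checks the labels only in part.

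Among the 40 transporter genes, 23 had 10 or more reads in at least 1 sample and were tested together with all other such genes, and 17 did not reach 10 reads in any sample. Of the 23 tested, 17 (73.9%) had an adjusted p under 0.05 in edgeR's quasi-likelihood test, where 59.7% of all 17401 genes tested did. The calls were 5 higher (21.7%) and 12 lower (52.2%) in VHL-KO cells, beside 28.5% higher and 31.2% lower over all genes. At least 2-fold changes were called for 3 members upward (SLC1A1, SLC7A7 and SLC43A3) and 4 downward (SLC7A1, SLC7A2, SLC38A9 and SLC43A1), which is 3 and 4 of the 23 tested, beside 13.9% and 12.3% of all genes. Values of the groups did not overlap for 17 members, and for 64.7% of all genes tested. The members' median log2 fold change was -0.37, against -0.01 over all genes tested. With GC and length offsets this gap was absent, with medians of 0.01 and -0.01. In bulk RNA, a smaller share of cells expressing a gene and less of its RNA in each cell cannot be told apart.

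**Figure D1:**
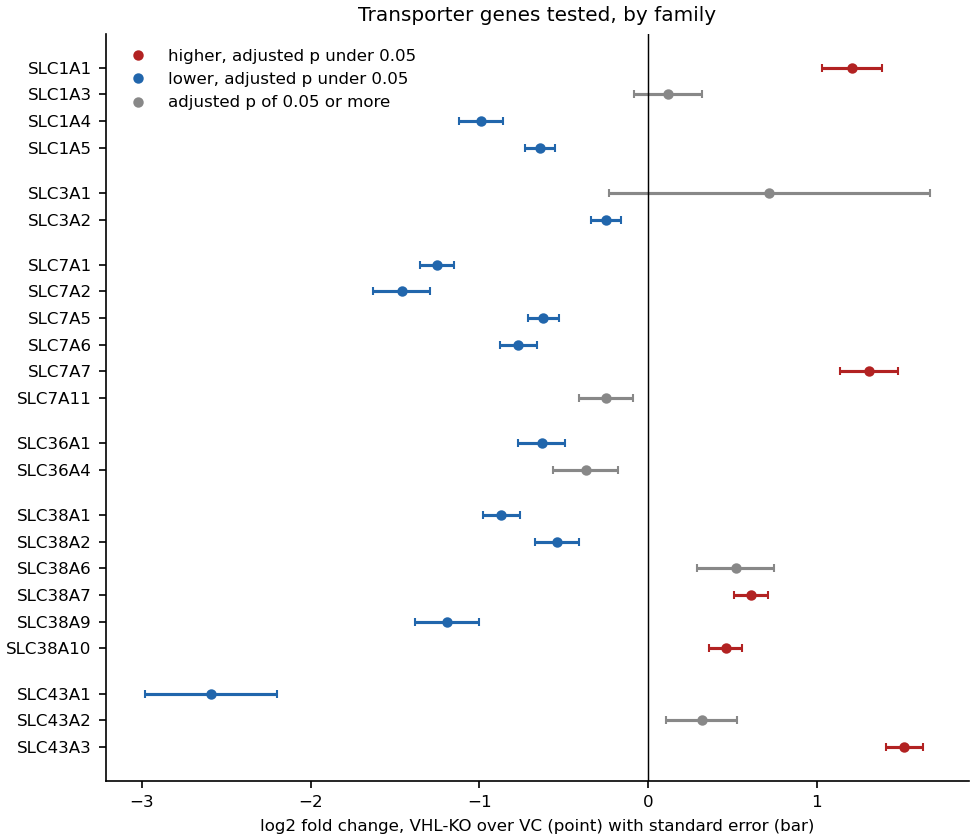
Log2 fold change of VHL-KO over VC (horizontal axis) for the 23 transporter genes tested, grouped by family, with bars for the standard error of the edgeR fit. The 12 genes called lower reach from -0.25 for SLC3A2 to -2.59 for SLC43A1, and the 5 called higher from 0.46 for SLC38A10 to 1.52 for SLC43A3.

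The families differed in how many of their members were read at all. SLC1 had 4 of 7 genes tested, with 1 higher and 2 lower. SLC3 had both genes tested, with 1 lower. SLC7, the largest, had 6 of 13 tested, of which 4 were lower and 1 was higher. In SLC36, 2 of 4 genes were tested and 1 was lower. SLC38 was divided, with 6 of 11 tested, 3 lower and 2 higher. All 3 SLC43 genes were tested, with 1 lower and 1 higher. The remaining 6 tested genes (SLC1A3, SLC3A1, SLC7A11, SLC36A4, SLC38A6 and SLC43A2) did not pass the threshold.

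To compare levels between genes, counts were divided by exon length and by the TMM-scaled library size (RPKM). Summed over a family (mean ± SD, n = 3 per group), SLC7 had 168 ± 12.3 RPKM in VC and 108 ± 9.85 RPKM in VHL-KO cells. The SLC1 sum was 99.7 ± 10.7 RPKM in VC and 65.2 ± 3.84 in VHL-KO cells. These sums lay lower in all 3 VHL-KO samples than in any VC sample, with log2 ratios of the means of -0.65 for SLC7 and -0.61 for SLC1. The SLC3 sum went from 52.1 ± 5.81 to 43.8 ± 0.689 RPKM and the SLC36 sum from 2.99 ± 0.125 to 2.03 ± 0.0999, also without overlap. In contrast, the SLC43 sum was 6.44 ± 0.629 RPKM in VC and 16.5 ± 0.586 in VHL-KO cells, a log2 ratio of 1.36. SLC38 had sums of 59.3 ± 2.18 and 64.7 ± 3.71 RPKM that overlapped between the groups, with a log2 ratio of 0.13 that turned to -0.07 when samples were scaled by library size alone. Over all 40 genes the sum was 389 ± 27.6 RPKM in VC and 300 ± 17.5 in VHL-KO cells. No test was made of a sum over members. The order of the families depends on the length used. Divided by the longest transcript in place of the union of exons, the SLC38 and SLC3 sums both lay above the SLC1 sum in every VHL-KO sample.

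**Figure D2:**
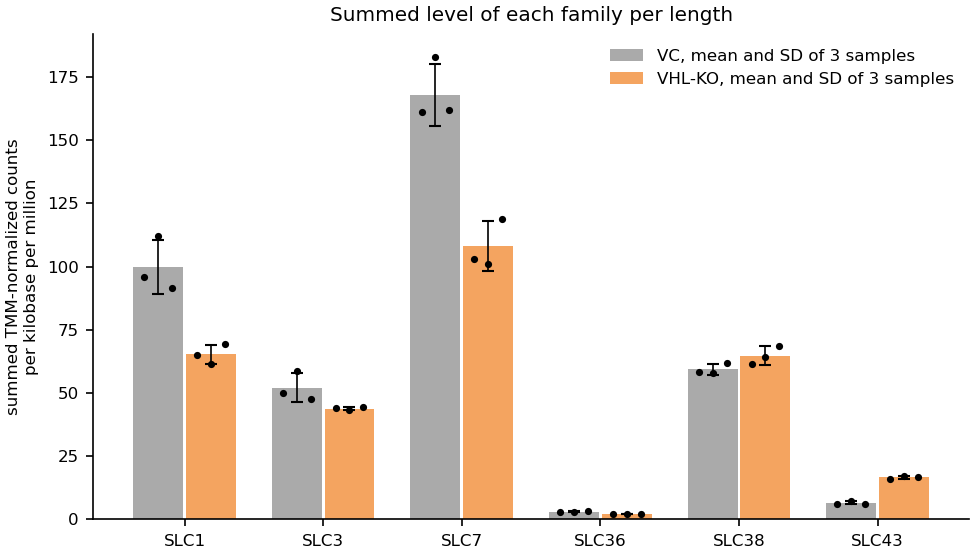
Summed level per length of each family (vertical axis, RPKM with TMM scaling) in VC and VHL-KO cells, with bars for the mean, error bars for the SD and points for the 3 samples of each group. By the union of exons, SLC7 holds the largest sum in both groups, and SLC1 and SLC38 overlap in VHL-KO cells. The order of SLC1, SLC3 and SLC38 depends on the length used. SLC43 has the largest relative difference, from 6.44 to 16.5. The SLC38 difference changes sign when scaled by library size alone.

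Most of the transporter mRNA came from few genes. SLC7A5, SLC1A5 and SLC3A2 together held 74.9 ± 2.09% of the summed RPKM of all members in VC, against 66.3 ± 1.03% in VHL-KO cells. By sample the share was 74.9, 77.0 and 72.9% in VC and 66.9, 65.2 and 66.9% in VHL-KO, with no overlap. SLC7A5 ranked first with 145 ± 12.3 RPKM in VC cells, a level exceeded by 1.35% of all tested genes, followed by SLC1A5 (94.2 ± 10.4), SLC3A2 (52.0 ± 5.82) and SLC38A10 (26.7 ± 3.01). Each of these lay above the next in every VC sample when divided by the union of exons. For SLC3A2 this union is 6392 bases against 2843 in its longest transcript, and for SLC1A5 3332 against 2882. Divided by the longest transcript, SLC3A2 lay above SLC1A5 in every VC sample, so their order depends on the length used. Further down, SLC7A1 (13.2 ± 1.21), SLC38A1 (11.3 ± 2.20) and SLC38A2 (11.2 ± 3.06) were not separated by their spread. In VHL-KO cells the first 4 places by the union of exons were the same. By the longest transcript, SLC3A2 lay above SLC1A5 there too, at a level near that of SLC7A5. SLC43A3, not separated from SLC7A6 at ranks 9 and 10 in VC cells, came to rank 5 in VHL-KO cells with 16.0 ± 0.650 RPKM.

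The exchanger of leucine and other large neutral amino acids is a pair of SLC7A5 (also called LAT1) and the heavy chain SLC3A2 (CD98). SLC7A5 lies on chromosome 16 of GRCh38 from 87830023 to 87869507 on the minus strand. It had 664, 761 and 655 CPM in the VC samples and 433, 419 and 503 CPM in the VHL-KO samples. All 3 VHL-KO values were below the lowest VC value, and the log2 fold change was -0.62 (standard error 0.09, edgeR adjusted p = 3.4e-06). SLC3A2, on chromosome 11 from 62856004 to 62888880, had 319, 375 and 304 CPM in VC and 282, 275 and 283 CPM in VHL-KO cells. The groups did not overlap, but the gap between them was narrow, and the log2 fold change was -0.25 (standard error 0.09, edgeR adjusted p = 0.0223). That call was lost with a smaller fold change of -0.14 under upper quartile factors (adjusted p = 0.235) and with VC replicate 2 left out (0.113). It was lost with a near-equal fold change when VHL-KO replicate 1 (-0.24, adjusted p = 0.0686) or 2 (-0.23, 0.0956) was left out, within a range of 1.5e-05 to 0.235 over all settings. The pseudogenes SLC7A5P1 and SLC7A5P2, which could share reads with SLC7A5, were listed at 0 counts in all samples.

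SLC3A2 also carries the light chains that exchange cationic for neutral amino acids and the cystine and glutamate exchanger. SLC7A6, a cationic and neutral amino acid exchanger, had 40.2, 41.0 and 41.4 CPM in VC and 24.6, 22.4 and 24.8 CPM in VHL-KO cells. The VHL-KO samples were all lower, with a log2 fold change of -0.77 (standard error 0.11, edgeR adjusted p = 1.3e-06). Of its exonic bases, 44.4% overlap SLC7A6OS on the opposite strand, which had 849, 671 and 892 counts (VC) and 588, 479 and 494 counts (VHL-KO), and the sources used here do not say whether the counting used strand. SLC7A7, which moves cationic amino acids out of kidney and gut epithelium at the basolateral side, had 3.69, 4.41 and 4.08 CPM in VC and 8.91, 11.1 and 10.3 CPM in VHL-KO samples. It was therefore higher in every VHL-KO sample, opposite to SLC7A6, with a log2 fold change of 1.31 (standard error 0.17, edgeR adjusted p = 3.8e-07).

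SLC7A11, the light chain that imports cystine for glutathione synthesis, had 17.3, 12.4 and 19.7 CPM in VC and 14.3, 15.3 and 12.0 CPM in VHL-KO samples. The groups overlapped, and the log2 fold change of -0.25 did not pass the threshold (standard error 0.16, edgeR adjusted p = 0.179). Its direction was not stable, being 0.29 with GC and length offsets (adjusted p = 0.0264) and -0.40 without VC replicate 2 (adjusted p = 0.0144), within a range of adjusted p from 0.0144 to 0.661. SLC7A8, a light chain of the proximal tubule, was close to silent, with 3 counts in VHL-KO replicate 1 and 0 in the other 5 samples. The heavy chain of cystine reabsorption at the brush border, SLC3A1, had 3, 2 and 7 counts (VC) and 10, 4 and 0 counts (VHL-KO), and entered the test through 1 sample. Its partner SLC7A9 had no count in VC samples and 3, 1 and 0 counts in VHL-KO samples. Exons of SLC3A1 overlap PREPL on the opposite strand over 29.4% of their bases. Another annotated gene on the same strand, with 0 counts in all samples, overlaps 26.9% of them.

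**Figure D3:**
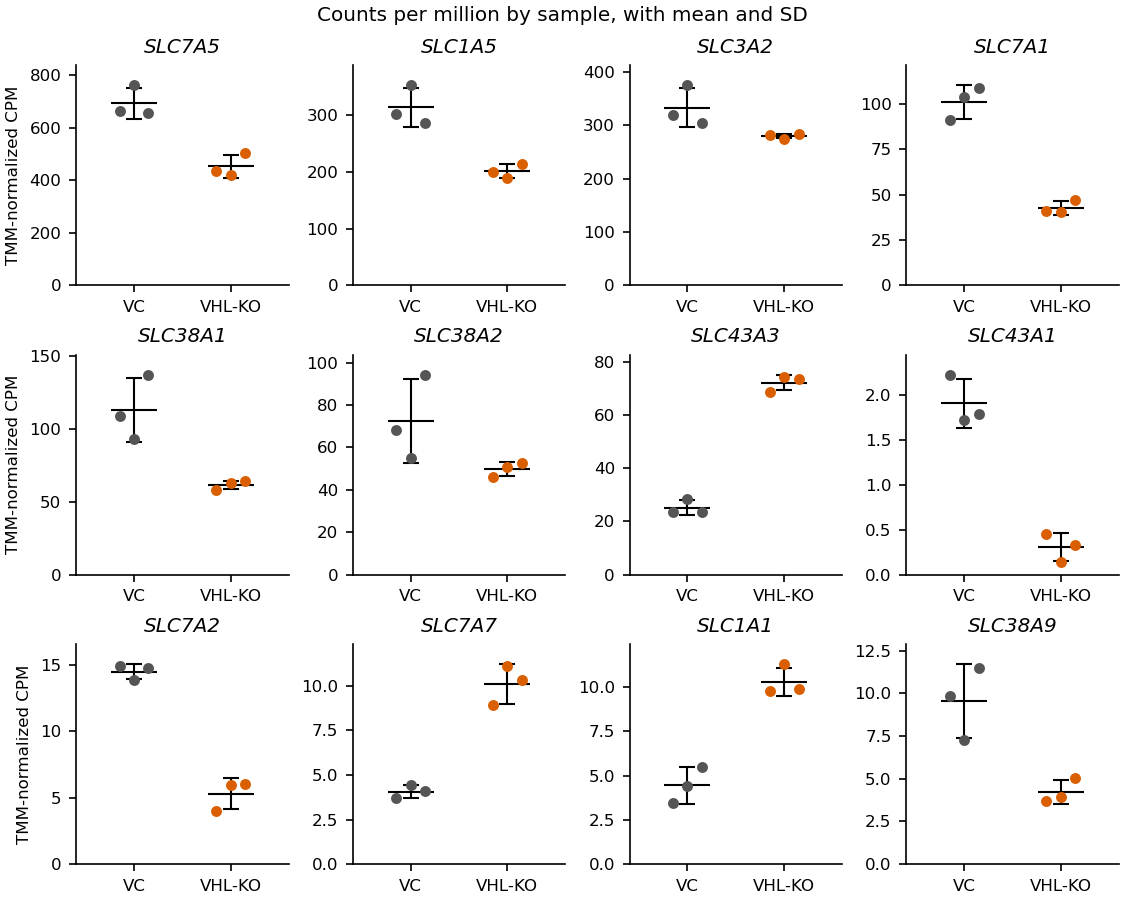
TMM-normalized CPM (vertical axes, each starting at 0) of 12 transporter genes in the 3 VC and 3 VHL-KO samples, with a line for the mean and bars for the SD. VHL-KO samples lie below VC samples for 9 genes and above them for SLC43A3, SLC7A7 and SLC1A1, and for SLC3A2 and SLC38A2 the groups nearly meet.

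In the SLC1 family the neutral amino acid exchangers were lower and a glutamate carrier was higher in VHL-KO cells. SLC1A5 (also called ASCT2), which exchanges glutamine, lies on chromosome 19 from 46774883 to 46788594 and had 303, 353 and 286 CPM in VC and 199, 189 and 214 CPM in VHL-KO samples. The groups stood well apart, with a log2 fold change of -0.64 (standard error 0.09, edgeR adjusted p = 2.4e-06). Its relative SLC1A4, an exchanger of alanine, serine and cysteine, had 27.0, 32.3 and 28.3 CPM in VC and 15.8, 12.4 and 15.7 CPM in VHL-KO samples. Every VHL-KO value of SLC1A4 was below every VC value, and its log2 fold change was -0.99 (standard error 0.13, edgeR adjusted p = 4.6e-07). For SLC1A1, a sodium-coupled glutamate carrier of kidney and brain, 3.43, 4.44 and 5.48 CPM were measured in VC and 9.81, 11.3 and 9.90 CPM in VHL-KO samples. Here the VHL-KO samples were all higher, by a log2 fold change of 1.21 (standard error 0.18, edgeR adjusted p = 3.0e-06). SLC1A3, another glutamate carrier, was near 3.35 CPM in VC and 3.64 CPM in VHL-KO cells, and its log2 fold change of 0.12 had an adjusted p of 0.625 in edgeR. It was called higher with GC and length offsets (0.45, adjusted p = 0.0321, within a range of 0.0321 to 0.81), the only setting of 15 that did so. An unnamed noncoding gene on the opposite strand overlaps 23.4% of the exonic bases of SLC1A5 and had 31 to 41 counts per sample.

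Promoters of 4 members, chosen after the values were seen, are shown for the 2 most abundant carriers that fell together, for the arginine carrier SLC7A1 that fell more than 2-fold, and for SLC1A1, which rose. They are RefSeq sequences of GRCh38.p14 (31 of the 40 members matched an entry by symbol), 250 bases that end just before the start site nearest to the start of the gene, written 5′ to 3′ on the strand of the gene. Capitals mark ACGTG and GCGTG, the core sequences of HIF binding sites, on either strand, and CACGTG, the E-box, which contains ACGTG on each strand and was added after the promoters had been read.
SLC7A5, chr16:87869508-87869757, minus strand: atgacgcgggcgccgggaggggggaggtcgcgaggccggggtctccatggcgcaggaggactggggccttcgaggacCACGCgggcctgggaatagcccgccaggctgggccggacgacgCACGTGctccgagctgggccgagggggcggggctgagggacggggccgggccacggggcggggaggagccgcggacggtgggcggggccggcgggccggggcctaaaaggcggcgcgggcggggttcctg
SLC1A5, chr19:46788595-46788844, minus strand: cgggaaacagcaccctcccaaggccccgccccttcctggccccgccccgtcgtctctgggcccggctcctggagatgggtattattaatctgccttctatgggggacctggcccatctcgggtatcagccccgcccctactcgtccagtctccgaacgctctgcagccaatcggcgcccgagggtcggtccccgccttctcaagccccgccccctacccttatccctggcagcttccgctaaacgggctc
SLC7A1, chr13:29595689-29595938, minus strand: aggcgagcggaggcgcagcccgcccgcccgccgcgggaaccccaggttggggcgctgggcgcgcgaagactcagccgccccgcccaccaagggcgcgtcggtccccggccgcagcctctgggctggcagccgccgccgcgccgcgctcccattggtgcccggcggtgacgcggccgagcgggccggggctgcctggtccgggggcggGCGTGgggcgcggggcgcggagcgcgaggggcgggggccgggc
SLC1A1, chr9:4490218-4490467, plus strand: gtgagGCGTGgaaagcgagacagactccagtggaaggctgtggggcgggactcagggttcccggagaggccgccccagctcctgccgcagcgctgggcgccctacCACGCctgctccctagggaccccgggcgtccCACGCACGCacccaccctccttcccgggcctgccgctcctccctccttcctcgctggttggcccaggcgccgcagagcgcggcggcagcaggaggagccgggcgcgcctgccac
SLC7A5 holds the E-box with its first base 130 bases before the start and a GCGTG at 173 bases. SLC1A5 has none of these motifs in the window, SLC7A1 has 1 GCGTG and SLC1A1 has 4.

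Over the matched members, ACGTG was found in 9 of 31 windows (29.0%), against 18.5% of all 35116 RefSeq windows of this length. GCGTG was in 15 of 31 (48.4%), against 32.2% of all. Of the 11 matched members called lower, 5 held ACGTG and 8 held GCGTG. Of the 4 matched members called higher, 0 held ACGTG and 2 held GCGTG. The E-box CACGTG was in 4 of 31 windows (12.9%, against 6.34% of all), including those of SLC7A5 and SLC43A1. The amino acid response element TGATGNAA, searched on both strands, was in 1 window, that of SLC1A3 (3.23%, against 3.14% of all). Among called members, the windows of SLC38A1 and SLC38A9 lie 2030 and 60859 bases from the gene start in GENCODE, and that of SLC7A7, without a match, 10029 bases. The windows of all genes were not matched to the members by GC content or by expression. These shares therefore cannot show an excess of a motif among the members or among those called. A match describes letters in a window and not a site in use.

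SLC7A1 and SLC7A2, which carry arginine and lysine without a heavy chain, had the largest falls of the SLC7 family. SLC7A1, the more widely expressed, on chromosome 13 from 29509414 to 29595688, had 91.0, 104 and 109 CPM in VC and 40.9, 40.1 and 46.8 CPM in VHL-KO samples. The ranges were far apart, and the log2 fold change was -1.25 (standard error 0.10, edgeR adjusted p = 1.9e-10). SLC7A2, a carrier of the same substrates, had 14.9, 13.9 and 14.8 CPM in VC and 3.97, 5.93 and 6.05 CPM in VHL-KO samples. All VHL-KO samples were again below all VC samples, with a log2 fold change of -1.46 (standard error 0.17, edgeR adjusted p = 6.4e-08). The other genes of this subgroup, SLC7A3, SLC7A4 and SLC7A14, had at most 1 count in any sample. Of the exonic bases of SLC7A4, 73.6% are shared with another annotated gene on the same strand. Whether this lowers its count was not tested.

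SLC38 holds sodium-coupled carriers of glutamine and alanine at the plasma membrane and members on lysosomes. SLC38A1 had 109, 93.0 and 137 CPM in VC and 58.2, 62.5 and 63.9 CPM in VHL-KO samples. It was lower in every VHL-KO sample, and VC replicate 3 was the highest, with a log2 fold change of -0.87 (standard error 0.11, edgeR adjusted p = 4.0e-07). SLC38A2, which many cells raise when amino acids run short, had 68.4, 55.1 and 94.3 CPM in VC and 46.3, 50.6 and 52.6 CPM in VHL-KO samples. VC replicate 2 came close to the VHL-KO samples, and the log2 fold change was -0.54 (standard error 0.13, edgeR adjusted p = 0.0012). Without VC replicate 3, the highest sample, it was -0.29 and still called, and with GC and length offsets 0.01 (adjusted p = 0.928, within a range of 1.7e-07 to 0.928 over all settings). SLC38A1 and SLC38A2 lie 88.2 kb apart on chromosome 12, with no protein-coding gene between them, and SLC38A4, a further 392 kb away, had 0 to 5 counts per sample.

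Of 3 members known from lysosomes, SLC38A9 and SLC36A1 fell and SLC38A7 rose. SLC38A9, the arginine-sensing carrier that signals to mTORC1, had 9.87, 7.24 and 11.5 CPM in VC and 3.67, 3.94 and 5.02 CPM in VHL-KO samples. VHL-KO samples were all lower, with a log2 fold change of -1.19 (standard error 0.19, edgeR adjusted p = 9.6e-06). SLC36A1, a proton-coupled carrier of small neutral amino acids, had 16.1, 17.0 and 16.8 CPM in VC and 10.8, 9.83 and 11.6 CPM in VHL-KO samples. These groups also stood apart, with a log2 fold change of -0.63 (standard error 0.14, edgeR adjusted p = 0.000329). SLC38A7, a lysosomal exporter of glutamine and asparagine, rose from 55.1 ± 4.71 to 84.2 ± 4.36 CPM (mean ± SD, n = 3 per group), a log2 fold change of 0.61 (edgeR adjusted p = 8.6e-06), and was higher in 3 of 3 VHL-KO samples than in any VC sample.

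Of the other tested members of SLC38 and SLC36, only SLC38A10 passed the threshold. SLC38A10 went from 211 ± 23.8 to 290 ± 21.7 CPM (mean ± SD, n = 3 per group), a log2 fold change of 0.46 (edgeR adjusted p = 0.000219), which was 0.11 and not called with GC and length offsets (adjusted p = 0.111, range 9.1e-08 to 0.111). SLC38A6 had a log2 fold change of 0.52 that missed the threshold (edgeR adjusted p = 0.0542) and passed it in 8 of 15 settings, with 0.88 under GC and length offsets and 0.28 without VC replicate 2 (adjusted p from 0.000658 to 0.268 over all settings). SLC36A4, a carrier of proline and tryptophan, had a log2 fold change of -0.37 (edgeR adjusted p = 0.0911), and the offsets turned it to 0.17 (adjusted p = 0.331, range 0.016 to 0.41). It was called lower with library size alone (-0.57, edgeR adjusted p = 0.016) and without VC replicate 2 (-0.46, 0.0425).

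The SLC43 facilitators need no partner and no coupled ion. SLC43A1, which carries large neutral amino acids, had 76, 51 and 68 counts (VC) and 12, 3 and 7 counts (VHL-KO), or 1.91 ± 0.275 and 0.306 ± 0.156 CPM (mean ± SD, n = 3 per group). Its VHL-KO values were all far below VC, and its log2 fold change of -2.59 (standard error 0.39, edgeR adjusted p = 3.5e-06) was the largest of the members in either direction, at low counts. SLC43A3, which is known to carry purine nucleobases, had 23.5, 28.3 and 23.5 CPM in VC and 68.8, 74.2 and 73.5 CPM in VHL-KO samples. All VHL-KO samples were higher, by a log2 fold change of 1.52 (standard error 0.11, edgeR adjusted p = 1.3e-11). SLC43A2, a carrier of the same substrates as SLC43A1, had 3.90, 4.14 and 2.63 CPM in VC and 4.79, 4.59 and 3.89 CPM in VHL-KO samples. The groups overlapped, and its log2 fold change of 0.32 was not called (standard error 0.21, edgeR adjusted p = 0.187).

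SLC43A1 and SLC43A3 are neighbors on chromosome 11, from 57484534 to 57515780 and from 57406954 to 57427580, both on the minus strand. They lie 57.0 kb apart, with RTN4RL2 as the only protein-coding gene between them, and moved in opposite directions. Of the exonic bases of SLC43A3, 29.9% are shared with another annotated gene on the same strand, which had 0 counts in all samples. The summed level of the SLC43 family followed SLC43A3, which had 5.56 RPKM in VC and 16.0 RPKM in VHL-KO cells, while SLC43A1 had 0.542 and 0.0866 RPKM.

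The 17 members below 10 reads in every sample were SLC1A2, SLC1A6, SLC1A7, SLC7A3, SLC7A4, SLC7A8, SLC7A9, SLC7A10, SLC7A13, SLC7A14, SLC36A2, SLC36A3, SLC38A3, SLC38A4, SLC38A5, SLC38A8 and SLC38A11. Of these, 6 (SLC7A3, SLC7A10, SLC7A13, SLC7A14, SLC36A3 and SLC38A8) had 0 counts in all 6 samples. A count of 0 allows up to 3 counts, which is 0.079 to 0.101 CPM in VC and 0.112 to 0.141 CPM in VHL-KO samples, for counting error only. The highest value among the 17 was 7 counts, for SLC38A5, and the tested gene closest to the minimum was SLC3A1 with a highest value of 10. Differences between the groups were not tested for these 17 genes.

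Ratios of counts within a sample do not depend on library scaling. The ratio of SLC7A5 to SLC3A2 was 2.08, 2.03 and 2.15 (VC) and 1.54, 1.52 and 1.77 (VHL-KO), so that the light chain mRNA was lower relative to its heavy chain in all 3 VHL-KO samples. The log2 difference was -0.38 (exact permutation test, two-sided, p = 0.1, the smallest p that 3 against 3 samples allow, and 0.2 adjusted over 4 ratios). SLC38A2 to SLC38A1 gave 0.630, 0.592 and 0.691 (VC) and 0.796, 0.810 and 0.824 (VHL-KO). Here the VHL-KO ratios were all higher, with a log2 difference of 0.35 (exact permutation p = 0.1, adjusted 0.2). For SLC1A5 to SLC7A5 the ratios were 0.457, 0.463 and 0.436 (VC) and 0.460, 0.451 and 0.426 (VHL-KO). They overlapped, with a log2 difference of -0.02 (exact permutation p = 0.6, adjusted 0.8). SLC7A11 to SLC3A2 had means of 0.0506 ± 0.0161 and 0.0496 ± 0.00672 (SD, n = 3 per group, exact permutation p = 0.9). The ratios are not adjusted for GC content, which is 35.4% for SLC7A11 and 53.8% for SLC3A2. With GC and length offsets, the log2 fold change was 0.29 for SLC7A11 and -0.36 for SLC3A2, so their near-equal ratio depends on the processing. A planned ratio of SLC7A5 to SLC7A8 could not be formed, since SLC7A8 had counts of 0.

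Fold changes between the groups moved with GC content, taken from the longest transcript of each gene, across all genes. The members were read against genes of like GC content. All tested genes under 40% GC had a median log2 fold change of -0.45, those from 40 to 50% of -0.17, those from 50 to 60% of 0.20 and those of 60% or more of 0.50. The 4 members under 40% (SLC7A11, SLC36A4, SLC38A2 and SLC38A9) had a median of -0.46, close to that of all genes in the range. The 8 members from 40 to 50% had a median of -0.33 and the 8 from 50 to 60% of 0.04. SLC7A5 (61.2% GC), SLC1A5 (61.3%) and SLC38A10 (63.9%) are the 3 members of 60% or more, with a median of -0.62. With offsets that remove the trend with GC content and length, the members' median was 0.01. Their calls were then 7 higher and 11 lower of 23, beside 5029 higher and 5427 lower of all 17401 genes tested. SLC7A5 then had a log2 fold change of -0.91 (edgeR adjusted p = 5.1e-11) and SLC1A5 of -1.02 (6.4e-12), while SLC38A1 had -0.45 (8.5e-06) and SLC38A9 -0.67 (0.000623). Over all settings run, the adjusted p of these 4 genes stayed at or under 0.000623.

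**Figure D4:**
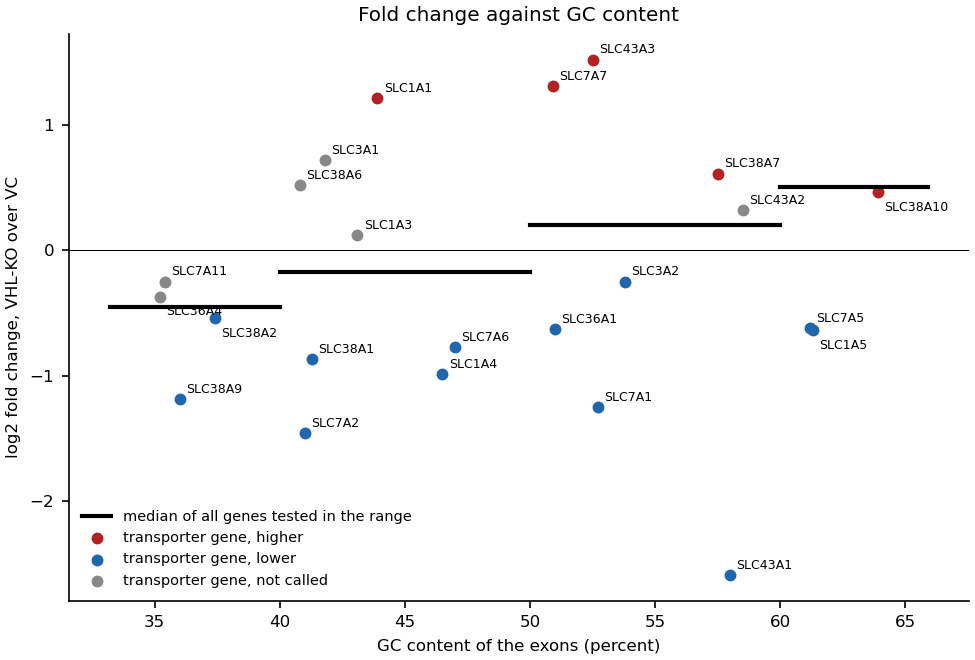
Log2 fold change of VHL-KO over VC (vertical axis) against GC content in percent (horizontal axis) for the 23 transporter genes tested. GC content is that of the exons in the longest transcript of each gene. Black lines mark the median of all genes tested in each of 4 GC ranges. SLC7A5 and SLC1A5 lie at -0.62 and -0.64 where the median of all genes is 0.50, and SLC38A2 and SLC36A4 lie at -0.54 and -0.37 where it is -0.45.

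Carriers of amino acids in other families were also read. Of 29 such genes 21 were tested, 6 higher and 10 lower (all genes, 28.5% and 31.2%), with a median log2 fold change of -0.36, or -0.10 with GC and length offsets. SLC6A20, a proline carrier of kidney and gut, had 0, 3 and 0 counts (VC) and 23, 11 and 25 counts (VHL-KO). On 3 counts in VC, all from replicate 2, its ratio of summed, scaled counts was 28.8 (exact 95% interval 9.38 to 143 for counting error). The log2 fold change of SLC6A20 was 4.63, within a range of 4.04 to 7.6 over 14 settings. MFSD12, needed for cysteine import into lysosomes and melanosomes, rose from 326 ± 38.9 to 939 ± 29.0 CPM (mean ± SD, n = 3 per group), a log2 fold change of 1.53 (edgeR adjusted p = 1.1e-12), or 0.93 with GC and length offsets. SLC6A8, the creatine carrier, had a log2 fold change of 1.20. The mitochondrial ornithine carrier SLC25A15 fell from 35.0 ± 3.60 to 11.2 ± 0.219 CPM, a log2 fold change of -1.64 (edgeR adjusted p = 4.9e-11). SLC16A10, a carrier of aromatic amino acids, had a log2 fold change of -1.88 (edgeR adjusted p = 0.000774).

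Genes of amino acid sensing upstream of mTORC1 had 34 of 35 tested, 15 higher and 9 lower (all genes, 28.5% and 31.2%), with a median of 0.18. With GC and length offsets 13 were higher and 12 lower, with a median of 0.14. RRAGD, a Rag GTPase at the lysosome, had 61, 76 and 69 counts (VC) and 760, 696 and 687 counts (VHL-KO). This was the largest change of the list, from 2.05 ± 0.437 to 31.0 ± 2.19 CPM (mean ± SD, n = 3 per group) and a log2 fold change of 3.92 (edgeR adjusted p = 9.0e-16). LAMTOR4, a subunit of the Ragulator complex that anchors Rag GTPases, had a log2 fold change of 1.29, DEPTOR, which binds mTOR, of 1.11, and the arginine sensor homolog CASTOR2 of 1.03. SEH1L, of the GATOR complex, fell by 1.00 on the log2 scale. These 4 had edgeR adjusted p from 3.2e-11 to 5.1e-06. GC and length offsets brought LAMTOR4 to 0.57 and SEH1L to -0.55.

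In the list of the amino acid response through GCN2 and ATF4, all 32 genes were tested, 8 higher and 17 lower (all genes, 28.5% and 31.2%), with a median log2 fold change of -0.33, or -0.29 with GC and length offsets. ATF4, the transcription factor of this response, had 338 ± 20.3 CPM in VC and 329 ± 17.9 CPM in VHL-KO cells (mean ± SD, n = 3 per group). Its log2 fold change of -0.04 was not called (edgeR adjusted p = 0.703) and changed sign between settings. It was called lower with GC and length offsets (-0.39, adjusted p = 3.5e-06) and with library size alone (-0.23, 0.0126), within a range of adjusted p from 3.5e-06 to 0.96. The largest falls were in MTHFD2 (log2 fold change -1.91), an enzyme of mitochondrial folate metabolism, and PSAT1 (-1.90), of serine synthesis, with edgeR adjusted p of 1.2e-13 and 7.6e-14. Rises of DDIT4, an inhibitor of mTORC1 signaling, and NUPR1, a stress-response regulator, had log2 fold changes of 2.07 and 2.72. NUPR1 rested on 1, 4 and 9 counts (VC) and 24, 33 and 7 counts (VHL-KO). ASNS, asparagine synthetase, had 33, 13 and 42 counts (VC) and 6, 8 and 5 counts (VHL-KO), with a log2 fold change of -1.61 (edgeR adjusted p = 0.00994) that was not called without VC replicate 1 (-1.49, 0.0519) or VC replicate 3 (-1.33, 0.0944), within a range of 0.00353 to 0.0944. Another gene on the same strand covers 49.3% of the exonic bases of ASNS, so reads from the shared part may not be counted for it.

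**Figure D5:**
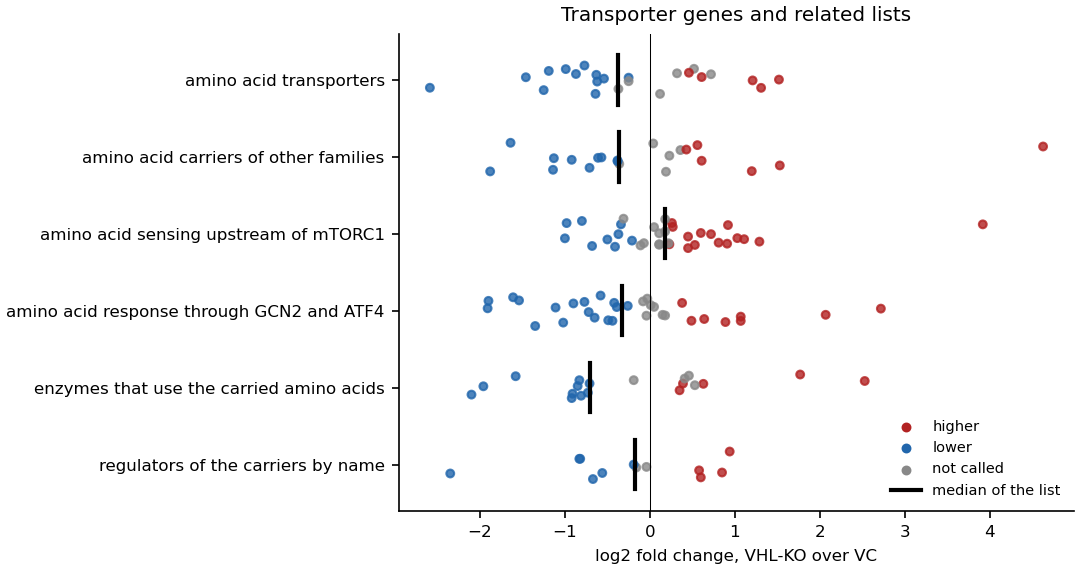
Log2 fold change of VHL-KO over VC (horizontal axis) of the tested genes of the amino acid transporter families and of 5 related lists, with a point for each gene and a black line for the median. Medians lie at -0.37 for the transporters, -0.36 for carriers of other families, 0.18 for amino acid sensing, -0.33 for the GCN2 and ATF4 response, -0.71 for enzymes and -0.18 for regulators; the SLC6A20 point at 4.63 rests on 3 counts in VC.

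Enzymes that use the carried amino acids had a median log2 fold change of -0.71, with 19 of 25 tested, 5 higher and 10 lower (all genes, 28.5% and 31.2%). With GC and length offsets the median was -0.28, with 5 higher and 9 lower. ODC1, which makes polyamines from ornithine, fell from 128 ± 7.27 to 30.0 ± 1.92 CPM (mean ± SD, n = 3 per group), a log2 fold change of -2.10 (edgeR adjusted p = 9.8e-15). The arginase ARG2 had a log2 fold change of -1.96 and BCAT1, which transaminates leucine, of -1.58 (-1.04 with GC and length offsets). KMO, of tryptophan breakdown, rose from 0.994 ± 0.103 to 5.75 ± 0.453 CPM, a log2 fold change of 2.53 (edgeR adjusted p = 6.8e-10). GLS2, a glutaminase, had a log2 fold change of 1.77 at 4 to 21 counts per sample, or 2.69 without VC replicate 1. Other annotated genes overlap 82.8% of its exonic bases, with 5.65% overlapped on the same strand, and whether the counting used strand is not known. GLUL, glutamine synthetase, was listed at 0 counts in all samples, and whether this comes from the cells or from the counting of reads was not tested.

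Of the 13 regulators of the carriers, 12 were tested, 4 higher and 6 lower (all genes, 28.5% and 31.2%), with a median of -0.18. With GC and length offsets 2 were higher and 7 lower, with a median of -0.30. HIF1A had 65.7 ± 14.1 CPM in VC and 12.9 ± 1.55 CPM in VHL-KO cells (mean ± SD, n = 3 per group). Its mRNA fell in all 3 VHL-KO samples, with a log2 fold change of -2.35 (edgeR adjusted p = 6.4e-13). EPAS1, which encodes HIF2-alpha, had a log2 fold change of -0.56, and MYC, a transcription factor that binds the E-box, of -0.82. The values here are of mRNA and do not give protein levels. By immunoblot, the paper reports more HIF1-alpha and HIF2-alpha protein in VHL-KO than in VC Caki-1 cells. NFE2L2, a transcription factor known to raise SLC7A11, had a log2 fold change of -0.67, and NEDD4L, a ubiquitin ligase of membrane carriers, of -0.83. BSG, a chaperone of membrane carriers, rose by a log2 fold change of 0.94, and TFEB, a regulator of lysosomal genes, by 0.85. These 6 genes had edgeR adjusted p from 2.7e-09 to 8.4e-06. GC and length offsets brought NFE2L2 to -0.20, BSG to 0.46 and TFEB to 0.53.

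Markers were read to check the cells against their label. Of 14 kidney epithelium and clear cell carcinoma markers 12 were tested, 6 higher and 2 lower (all genes, 28.5% and 31.2%), with a median log2 fold change of 0.32. Summed, they had 7970, 8910 and 7760 CPM in VC and 8750, 8180 and 8520 CPM in VHL-KO samples, most of it from VIM. PAX8 was at 428 ± 38.9 CPM in VC and 614 ± 14.2 CPM in VHL-KO cells (mean ± SD, n = 3 per group), with a log2 fold change of 0.52. KRT8 and KRT18 had 670 and 409 CPM in VC cells, while PAX2 and LRP2 were at 0 counts in all samples. CA9, a HIF target that marks clear cell carcinoma, had 0, 0 and 2 counts (VC) and 288, 247 and 233 counts (VHL-KO). On 2 counts in VC its ratio of summed, scaled counts was 562 (exact 95% interval 155 to 4650 for counting error). EPCAM had a log2 fold change of -1.42 and CUBN of 1.01, both at low counts. GGT1 had 5, 7 and 9 counts (VC) and 15, 9 and 15 counts (VHL-KO), and its call at a log2 fold change of 1.42 held in 4 of 14 settings, over which the fold change was 1.00 to 1.59.

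Of 11 markers of other cell types 2 were tested, PDGFRB, lower with a log2 fold change of -1.94, and PECAM1, higher with 2.73 at 0 to 14 counts per sample. PECAM1 was not called without VC replicate 3, where its log2 fold change was 2.11, within a range of 2.11 to 4.57 over 13 settings. PDGFRB was the most abundant, with 8.90 ± 1.61 CPM in VC and 2.32 ± 0.260 CPM in VHL-KO cells (mean ± SD, n = 3 per group). The sum of the list was 8.46, 10.9 and 7.82 CPM in VC and 2.92, 3.06 and 3.52 CPM in VHL-KO samples. Without PDGFRB it was at most 0.938 CPM in any sample. CD3E, MS4A1, LUM and SOX10 were at 0 counts in all samples. Whether PDGFRB or other markers have a part in the differences of the transporters was not tested.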

How the data were processed

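Total RNA of 3 VC and 3 VHL-KO samples was sequenced on an Illumina NovaSeq. The authors trimmed reads with Trim Galore and cutadapt, aligned them with STAR to GRCh38.p13, kept uniquely mapped reads with SAMtools and deposited the raw count of reads per gene from HTSeq. Versions, annotation release and strandedness are not given in the sources used here. Unique mapping can remove reads of near-identical genes, and overlapping genes can lose shared reads.

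Groups and replicate numbers came from the sample labels. Counts were compared with edgeR 4.0.16 in R 4.3.3 (TMM factors, quasi-likelihood F test, two-sided, Benjamini-Hochberg adjustment over the 17401 genes that reached 10 reads in some sample, threshold 0.05). The procedure was tested on simulated data. Gene positions, exon lengths and the GC content of the longest transcript came from GENCODE 44 and promoters from RefSeq (GRCh38.p14). No statement was found that replicates were separate cultures, so p-values measure the spread between these samples, which may be technical. Alternatives were DESeq2 1.42.0, RLE factors, upper quartile factors, library size alone, other count filters, each sample left out, replicate numbers as a block and offsets for GC content and length. Level sums and ratios were also computed with the longest transcript in place of the union of exons.

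The members and lists were chosen with earlier results of these data known. Named genes were VHL, every member, ATF4, ASNS, MYC, NFE2L2, EPAS1 and HIF1A, and from each further list the 5 called genes whose log2 fold change was furthest from 0. KRT8, KRT18, PAX2, LRP2 and other markers were named from marker lists, and GLUL after its values were seen. Figures were drawn with matplotlib 3.10.9.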

Additional observations from a re-analysis of the deposited data

How the results depend on the processing

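Of the 17 members called, 14 (10 lower and 4 higher) were called in the same direction under all 14 other settings that tested them, and SLC3A2, SLC38A2 and SLC38A10 were not. Over all genes, library size alone shifted the median log2 fold change by -0.19 and upper quartile factors by 0.11, and the members' median, -0.37, became -0.57 and -0.26, in each case 0.36 below that of all genes. It was 0.01 with GC and length offsets, which also remove change that follows GC content. The split of all calls was 4958 higher and 5436 lower, 3764 and 6737 with library size alone, and 5712 and 4668 with upper quartile factors. VHL had a log2 fold change of -0.14 with GC and length offsets and -0.22 with upper quartile factors, and -0.39 to -0.28 with 1 sample left out.

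With GC and length offsets the log2 fold change was 0.29 for SLC7A11, 0.17 for SLC36A4 and 0.01 for SLC38A2. SLC1A3 had -0.08 with library size alone and was called with offsets (0.45). ATF4 had 0.07 with upper quartile factors and -0.06 to 0.02 with 1 sample left out, and was called lower with offsets (-0.39) and with library size alone (-0.23). The log2 ratio of family sums with library size alone was -0.80 for SLC1, -0.44 for SLC3, -0.84 for SLC7, -0.76 for SLC36, -0.07 for SLC38 and 1.17 for SLC43. With 1 sample left out it was -0.67 to -0.52 for SLC1, -0.31 to -0.15 for SLC3 and 1.30 to 1.44 for SLC43. The ratio differences, computed without GC and length offsets, ranged from -0.26 to 0.22 for SLC7A11 to SLC3A2. For SLC1A5 to SLC7A5 they ranged from -0.05 to 0.01. The cause of these changes was not tested.

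With the replicate block, 18 members were called, SLC38A6 in addition, and 10284 of all genes. Deviations of samples with the same number had correlations of 0.0627, -0.000449 and 0.0283, so the numbers were not treated as pairs. Low counts limit SLC43A1, SLC3A1 and the 17 untested members.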
